A study of Mus musculus with 16 samples.

Results

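The mitochondrial ribosomal protein genes were followed in RNA sequencing counts of *APOE3* and *APOE4* brain endothelial cells. A gene was included when its GENCODE vM21 symbol was Mrpl or Mrps followed by a digit and its gene type was protein coding. This gave 78 genes of the 39057 rows of the count table, 49 of the large subunit (Mrpl) and 29 of the small subunit (Mrps) by symbol. They lie on 17 chromosomes and took 0.156% of all counts. A further 5 rows with such a symbol are pseudogenes and were left out.

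The mitoribosome translates the few messenger RNAs encoded by mitochondrial DNA, all of which specify subunits of the respiratory chain and ATP synthase. Its ribosomal RNAs come from the mitochondrial genome, whereas its Mrpl and Mrps proteins are encoded in the nucleus, translated in the cytosol and imported. The small subunit binds the messenger RNA and reads the codons, and the large subunit forms the peptide bonds and releases the new chain through an exit tunnel near the inner membrane. Some of these proteins have a counterpart in the bacterial ribosome and others are found only in mitochondria. Genes were assigned to these classes by hand from textbook knowledge, not from an annotation resource. By this division 45 of the 78 genes had a bacterial counterpart, 29 were mitochondria-specific and 4 were not assigned.

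The study compared 8 *APOE3* with 8 *APOE4* libraries, each made from the cortical cells of 1 brain, with 4 male and 4 female mice per genotype. In both lines of targeted replacement mice the human isoform is expressed from the mouse promoter in place of mouse Apoe, in all cells that use it. The mice were 21 to 28 days old by the labels, the cells had been selected with 8 µg/ml puromycin, which endothelial cells survive, and none was treated further. Replicate numbers are those of the labels (25 to 43) and do not link an *APOE3* to an *APOE4* culture.

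Total counts were 12717847 to 18624417 per library. Human APOE had 15504 to 22318 counts in *APOE3* and 7672 to 14722 in *APOE4* libraries, and mouse Apoe 128 to 290, which checks the replacement but not the isoform. Of the 18 brain endothelial markers, 18 were tested, and their summed level was 21578 ± 463 CPM in *APOE3* and 21414 ± 728 CPM in *APOE4* libraries. By the test described below, 2 of them differed (11.1%, against 12.8% of all genes). Egfl7 was lower (log2 fold change -0.16) and Emcn higher (0.14) in *APOE4* cells. Single markers varied in level, and Mfsd2a had only 3.46 ± 0.486 CPM in *APOE3* and 3.36 ± 0.924 CPM in *APOE4* libraries. CPM are counts scaled to a common library size with TMM factors, given as mean ± SD with n = 8 per genotype unless stated. Summed markers of other brain cells were lower, from 1.34 ± 0.520 CPM (oligodendrocytes) to 260.7 ± 52.7 CPM (pericytes and smooth muscle) in *APOE3*, and from 0.959 ± 0.420 to 276.3 ± 41.9 CPM in *APOE4* libraries. *APOE4* replicate 35 stood apart. It had the lowest total count and the highest cell cycle score, 6.52, a score being the mean log2 CPM of 40 cell cycle genes. It was also the highest library for 26 of the 77 mitoribosomal genes tested (33.8%) and for 1996 of the 12481 genes tested. Results that rest on this library are given with and without it. In such bulk samples, fewer cells of a type and less RNA per cell cannot be told apart.

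The DNA around the start sites of these genes is shown first, because many of them start next to another gene. Of the 78 genes, 33 (42.3%) had a gene on the opposite strand that started within 1000 bp, against 10.9% of all protein-coding rows. Among genes tested the shares were 42.9% of the mitoribosomal and 16.9% of the protein-coding genes. RefSeq windows (GRCm38.p6, 250 bases before to 50 after the start) were matched for 69 of the 78 genes. The motif of nuclear respiratory factor NRF1, searched by its consensus, was in the windows of 5 of them (7.25%), against 1.41% of all 27025 genes with a window and 3.41% of those tested here. The ETS motif read by GABP, CCGGAAG, was in 26 (37.7%), against 9.93% and 20.8%. The YY1 motif core AAGATGG was in 13 (18.8%), against 7.28% and 8.56%. The E-box CACGTG was in 5 (7.25%), against 8.09% and 11.9%. Each motif was searched on both strands with overlapping matches kept, and a match is a description of the letters, not evidence of binding.

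The stretches below belong to 4 of the 5 genes whose transcripts differed between genotypes. Capitals mark the NRF1 or GABP motif on either strand, and each stretch reads 5′ to 3′ on the strand of the gene. The first lies between the starts of Mrps12 and Sars2 (chr7:28741822-28741956, minus strand), and the second between those of Ptcd2 and Mrps27 (chr13:99344706-99344766, plus strand). The other stretches are 30 bases around a match, at chr6:125192099-125192128 for Mrpl51 and at chr11:97315668-97315697 upstream of Mrpl45, both on the plus strand.
Mrps12: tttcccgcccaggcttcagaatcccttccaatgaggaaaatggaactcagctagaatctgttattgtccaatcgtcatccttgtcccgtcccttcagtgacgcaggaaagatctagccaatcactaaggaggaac
Mrps27: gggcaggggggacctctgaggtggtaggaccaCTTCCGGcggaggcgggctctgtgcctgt
Mrpl51: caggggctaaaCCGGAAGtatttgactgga
Mrpl45: tggtttcatTGCGCACGCGCGaacccactg
The stretch before Mrps12 holds no match to either motif, and that before Mrps27 holds 1 GABP match on the opposite strand. For Mrpl51 the match lies before the RefSeq start and inside the gene as GENCODE draws it. Mrpl45 holds 2 NRF1 matches in its window, of which the 1 before the start is shown, and Mrpl24 had no match in its window.

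The levels of these transcripts were compared per exon length (CPM per kb of all annotated exons), since longer transcripts give more reads. All 78 genes had reads. Mrpl34 (36.8 CPM per kb), Mrpl54 (30.8) and Mrpl2 (23.5) had the highest levels per length of the large subunit, and Mrps21 (31.2), Mrps24 (20.6) and Mrps12 (17.4) those of the small subunit. The lowest levels per length were those of Mrpl47 (1.49), Mrpl23 (0.900) and Mrpl53 (0.147) in the large and of Mrps10 (2.09), Mrps22 (1.44) and Mrps35 (1.04) in the small subunit. Most proteins of the assembled particle are present in equal number, and their transcripts differed over this range in both genotypes. The order depends on the transcript model. With the length of the principal transcript alone, Mrps10 stood at 16.6 and Mrpl23 at 6.35 CPM per kb. By that length the highest large subunit levels were those of Mrpl52 (61.3 CPM per kb), Mrpl33 (44.9) and Mrpl42 (44.5), with Mrpl34 at 36.8 and Mrpl2 at 26.7, and Mrps21 (47.2) and Mrps24 (30.3) were again the highest of the small subunit.

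**Figure D1:**
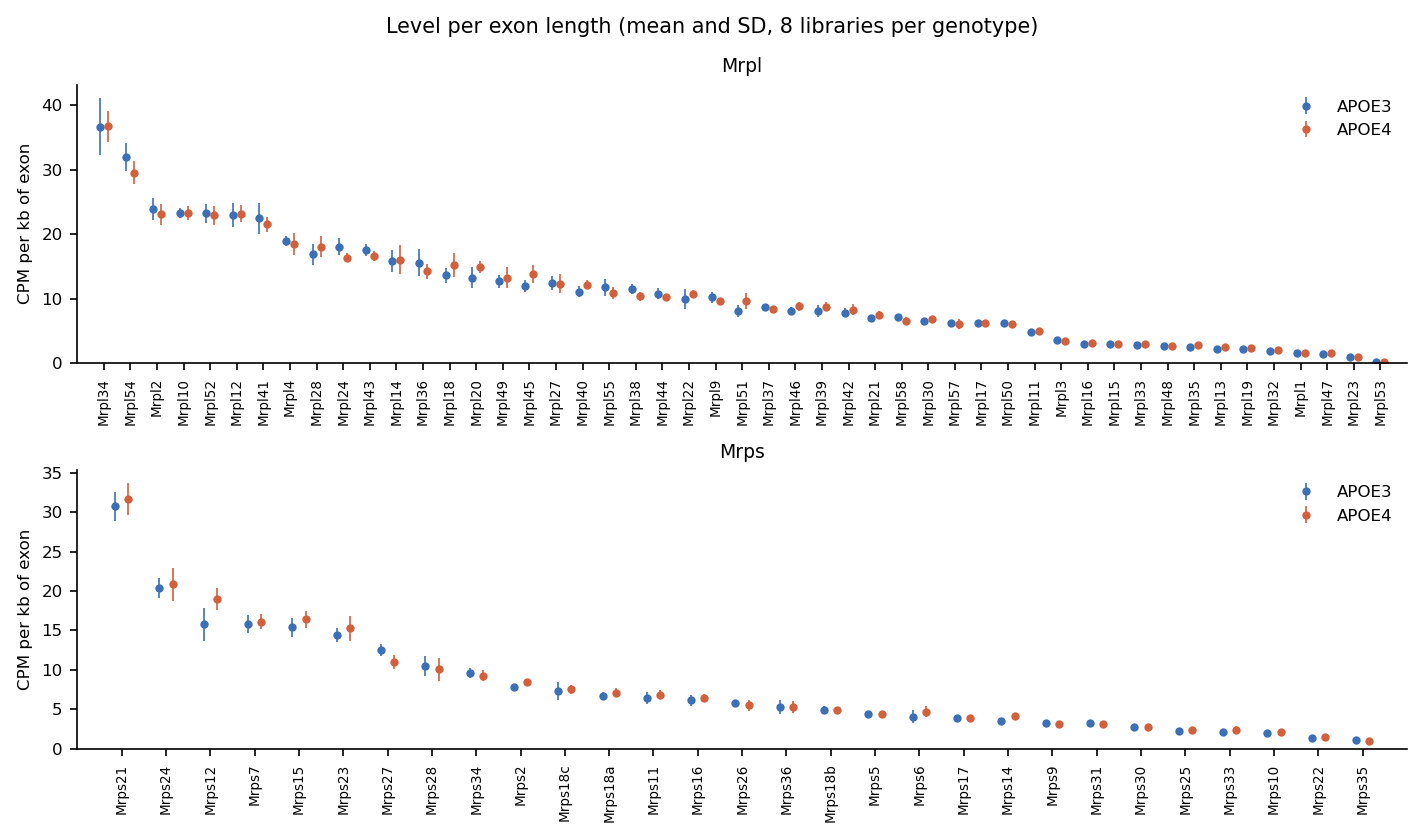
Level of each mitoribosomal transcript in CPM per kb of annotated exon (y axis), with Mrpl genes in the upper and Mrps genes in the lower panel, ordered by level. Points are means and bars the SD of 8 *APOE3* (blue) or 8 *APOE4* (orange) libraries. The levels fall from 36.8 (Mrpl34) to 0.147 (Mrpl53), and the genotypes lie close to each other at each gene.

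Mrpl53 was the only one of the 78 left out of the tests by the filter on low counts. Its counts were 0 to 6 per library. Of its exon bases, 88.0% lie in exons of Gm42688 on the same strand, which had 0.915 to 2.35 CPM, so reads from both genes cannot be told apart and its level is uncertain.

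The comparison asked whether these transcripts differ in level between *APOE4* and *APOE3* cells, and whether the subunits differ in this. Few of them differed. Of the 77 genes tested, 5 passed the threshold (6.49%), against 12.8% of the 12481 genes tested in all. Higher in *APOE4* cells were 3, namely Mrps12 of the small and Mrpl51 and Mrpl45 of the large subunit, against 6.71% of all genes. Lower were 2, Mrps27 of the small and Mrpl24 of the large subunit, against 6.09% of all genes. The test was edgeR's quasi-likelihood F test on the counts of all 16 libraries, with Benjamini-Hochberg adjustment over all genes tested and a threshold of 0.05. At an unadjusted p under 0.05 there were 14 mitoribosomal genes (18.2%), against 29.0% of all genes. No gene of the 77 separated the genotypes without overlap. Only 0.625% of all genes did, so a count of 0 among 77 says little about these genes.

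The changes were small on either side of 0. Log2 fold changes (*APOE4* against *APOE3*) ran from -0.19 to 0.27, with 47 above and 30 below 0, a median of 0.03 and a median SE of 0.064. The 95% interval lay inside 0.32 on either side of 0 (log2 scale) for 68 of the 77 genes (88.3%), against 65.3% of all genes tested. With GC content and gene length corrected 3 genes passed, 1 higher (Mrps12) and 2 lower (Mrps27 and Mrpl24). The count of 5 also depended on single libraries. It was 2 without *APOE3* replicate 26 or 28, 1 without *APOE3* replicate 30, and 0 without *APOE3* replicate 33, where 9 genes still had an unadjusted p under 0.05. It was 2 without *APOE4* replicate 35, 3 without replicate 39, and 1 without replicate 40 or 41. Shares of all genes called in these fits are not given here. These counts therefore do not show whether mitoribosomal genes depend more on single libraries than other genes do.

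**Figure D2:**
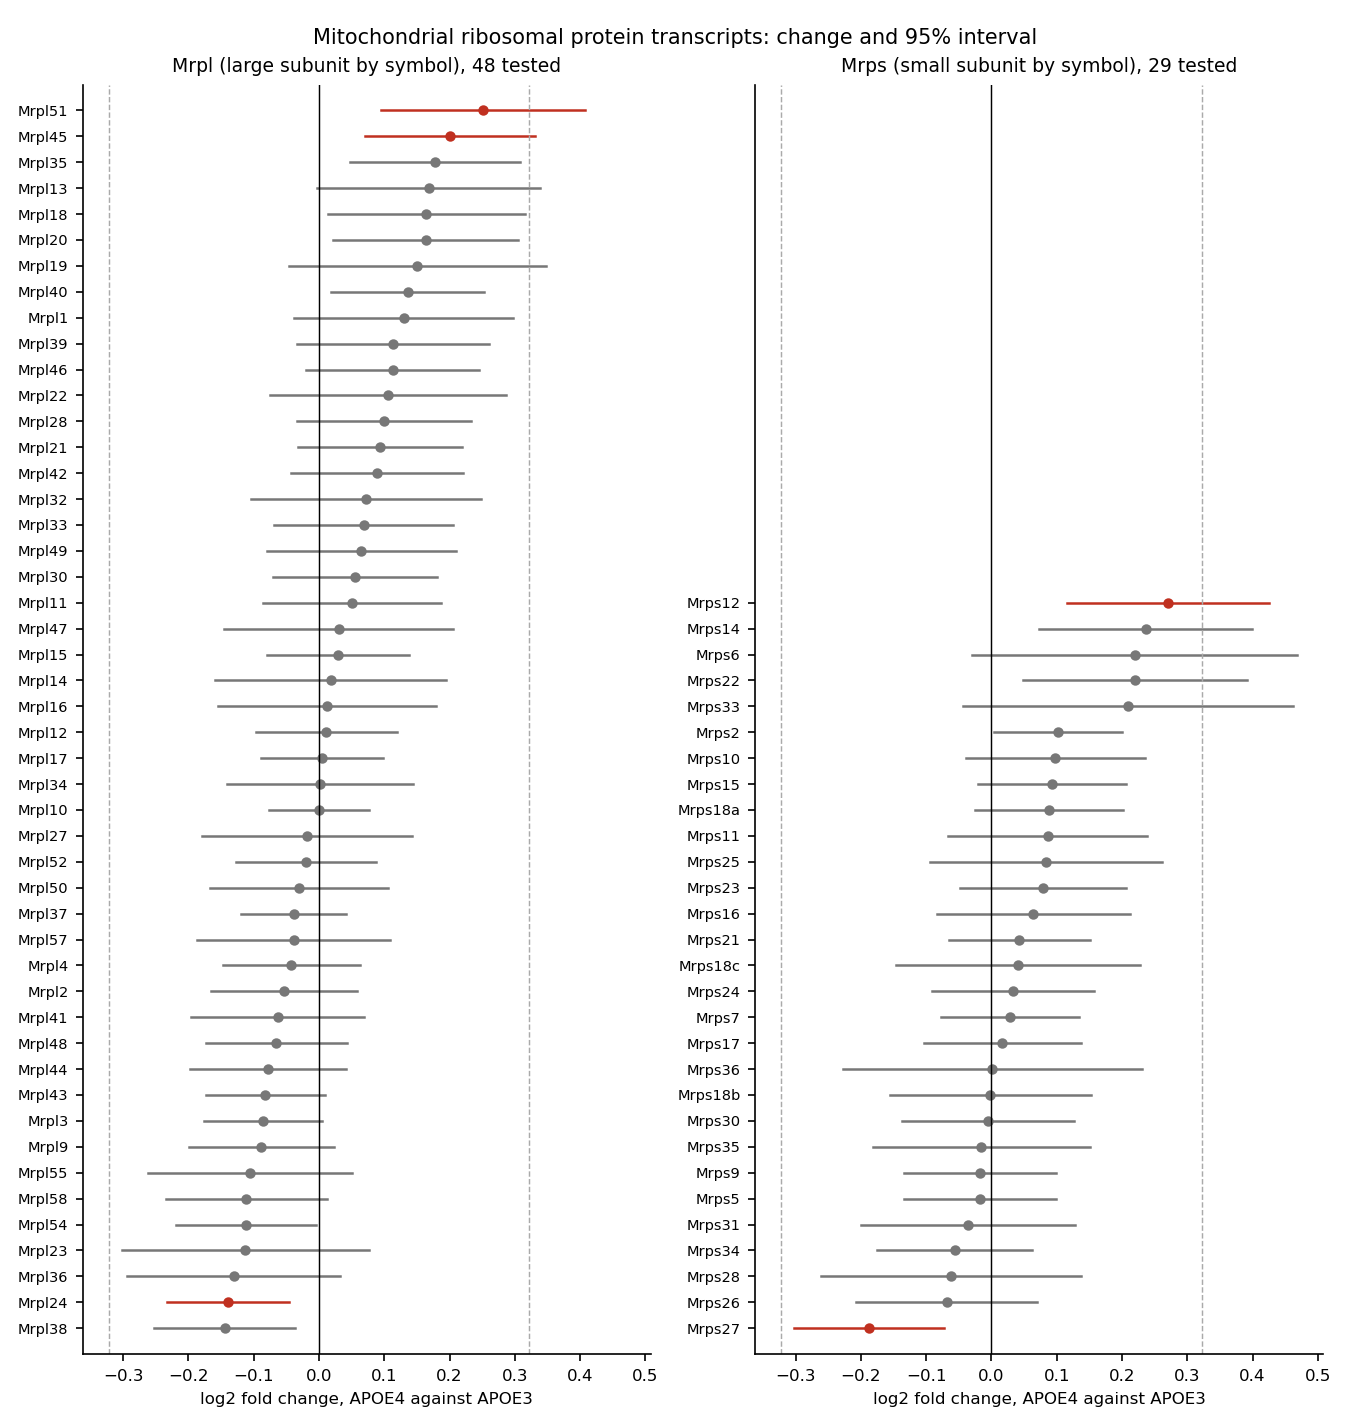
Log2 fold change of each of the 77 mitoribosomal transcripts tested (x axis, *APOE4* against *APOE3*; points) with its 95% interval (bars), Mrpl genes left and Mrps genes right, ordered by change. Red marks the 5 genes that passed the threshold and dashed lines a log2 fold change of 0.32 in either direction; most intervals lie between the dashed lines on both sides of 0.

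Mrps12 (ENSMUSG00000045948.8, chromosome 7 from 28739641 to 28741820, minus strand, GRCm38) encodes the counterpart of a bacterial protein at the decoding site. In *APOE3* libraries its lowest, median and highest levels were 14.3, 15.8 and 20.1 CPM. In *APOE4* libraries they were 17.4, 20.1 and 21.4 CPM. Each of the 8 *APOE4* libraries exceeded the *APOE3* median, and the ranges overlapped through *APOE3* replicates 30 and 31. The log2 fold change was 0.27 (adjusted p = 0.0232, SE 0.074), from 16.4 ± 2.17 to 19.8 ± 1.45 CPM. This call held in 15 of 16 fits that each left out 1 library, and was lost without *APOE3* replicate 33 (0.25, adjusted p = 0.0503). It was also lost with the cell cycle score, described with Mrpl51, in the model (0.19, adjusted p = 0.736). The neighbour Sars2, which encodes the mitochondrial seryl-tRNA synthetase, had a log2 fold change of -0.18 (adjusted p = 0.147, SE 0.0824).

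Mrps27 (ENSMUSG00000041632.5, chromosome 13 from 99344786 to 99415562, plus strand) encodes a mitochondria-specific pentatricopeptide repeat protein of the small subunit. Its lowest, median and highest levels were 23.5, 26.4 and 27.9 CPM in *APOE3* and 19.6, 23.0 and 26.1 CPM in *APOE4* libraries. All 8 *APOE4* libraries lay below the *APOE3* median, while *APOE3* replicates 26, 30, 31 and 32 lay within the *APOE4* range. It fell by 0.19 on the log2 scale (adjusted p = 0.0313, SE 0.055). Of its exon bases, 24.2% overlap 6430562O15Rik on the opposite strand, which had a log2 fold change of 0.12 (adjusted p = 0.593, SE 0.136), and the strand setting of the counting is not given in the sources used here, so that part of the reads is uncertain. The call was lost without *APOE3* replicate 27, 28, 30 or 33, or without *APOE4* replicate 37, 38, 40 or 41, with log2 fold changes from -0.17 to -0.19 and adjusted p-values up to 0.0631. It was -0.17 with the cell cycle score in the model (adjusted p = 0.690).

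Mrpl51 (ENSMUSG00000030335.6, chromosome 6 from 125191801 to 125196269, plus strand) encodes a mitochondria-specific protein of the large subunit. Its lowest, median and highest levels were 29.3, 32.1 and 40.7 CPM in *APOE3* and 34.4, 37.6 and 50.2 CPM in *APOE4* libraries. The highest library of each genotype, *APOE3* replicate 31 and *APOE4* replicate 35, lay apart from the other 7, and the ranges overlapped only through replicate 31. The log2 fold change was 0.25 (adjusted p = 0.0330, SE 0.075), and 0.19 without replicate 35 (adjusted p = 0.0574). Replicates 31 and 35 also had the highest cell cycle score of their genotype, 6.02 and 6.52. The score was 5.45 ± 0.355 in *APOE3* (4.97 to 6.02) and 6.05 ± 0.272 in *APOE4* libraries (5.72 to 6.52). In the main fit 37 of the 40 cell cycle genes were higher in *APOE4* cells, against 6.71% of all genes. With the score as a covariate, the log2 fold change of Mrpl51 was -0.01 (adjusted p = 0.993). In that fit edgeR called none of the 12481 genes, and 4 mitoribosomal genes had an unadjusted p under 0.05. Because the score itself differs between the genotypes, this fit cannot tell genotype and score apart, for this or any other gene. The call of Mrpl51 was also lost without *APOE3* replicate 26, 28, 30, 32 or 33, or without *APOE4* replicate 39, 40 or 41 (log2 fold changes 0.23 to 0.25, adjusted p-values 0.0517 to 0.0718). Mrpl51 lost its call with GC content and gene length corrected too (0.21, adjusted p = 0.0623). Ncapd2, a condensin subunit that starts 100 bp away on the other strand, was higher as well (log2 fold change 0.45 with SE 0.102, adjusted p = 0.0102).

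Mrpl45 (ENSMUSG00000018882.12, chromosome 11 from 97315716 to 97329920, plus strand) encodes a mitochondria-specific protein at the exit tunnel that holds the large subunit to the inner membrane. Its lowest, median and highest levels were 27.5, 31.3 and 34.6 CPM in *APOE3* and 31.3, 34.3 and 40.7 CPM in *APOE4* libraries. The ranges overlapped, with *APOE4* replicates 35 and 40 and, less far, 41 above the rest. The log2 fold change was 0.20 (adjusted p = 0.0404, SE 0.063). It lost its call without *APOE3* replicate 25, 26, 27, 28, 30 or 33, or without *APOE4* replicate 35, 37, 40 or 41 (0.17 to 0.21, adjusted p-values 0.0502 to 0.0887). With the cell cycle score in the model it was 0.03 (adjusted p = 0.958). The call was also lost with GC content and gene length corrected (0.18, adjusted p = 0.0542).

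Mrpl24 (ENSMUSG00000019710.13, chromosome 3 from 87919506 to 87923672, plus strand) encodes the counterpart of a bacterial protein that binds early during assembly of the large subunit. Its lowest, median and highest levels were 36.7, 41.2 and 45.5 CPM in *APOE3* and 34.7, 36.9 and 39.1 CPM in *APOE4* libraries. Each *APOE4* library lay below the *APOE3* median, and the *APOE3* libraries spread more widely. It fell by 0.14 on the log2 scale (adjusted p = 0.0467, SE 0.045). Its exons overlap Rrnad1 on the opposite strand over 26.3% of their bases, and Rrnad1 had a log2 fold change of -0.14 (adjusted p = 0.137, SE 0.0603). The call held in 4 of the 16 fits that left out 1 library, those without *APOE3* replicate 28, 31 or 32 or *APOE4* replicate 36, and was lost in the other fits (-0.11 to -0.15, adjusted p-values 0.0536 to 0.106). It was -0.03 with the cell cycle score in the model (adjusted p = 0.944).

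**Figure D3:**
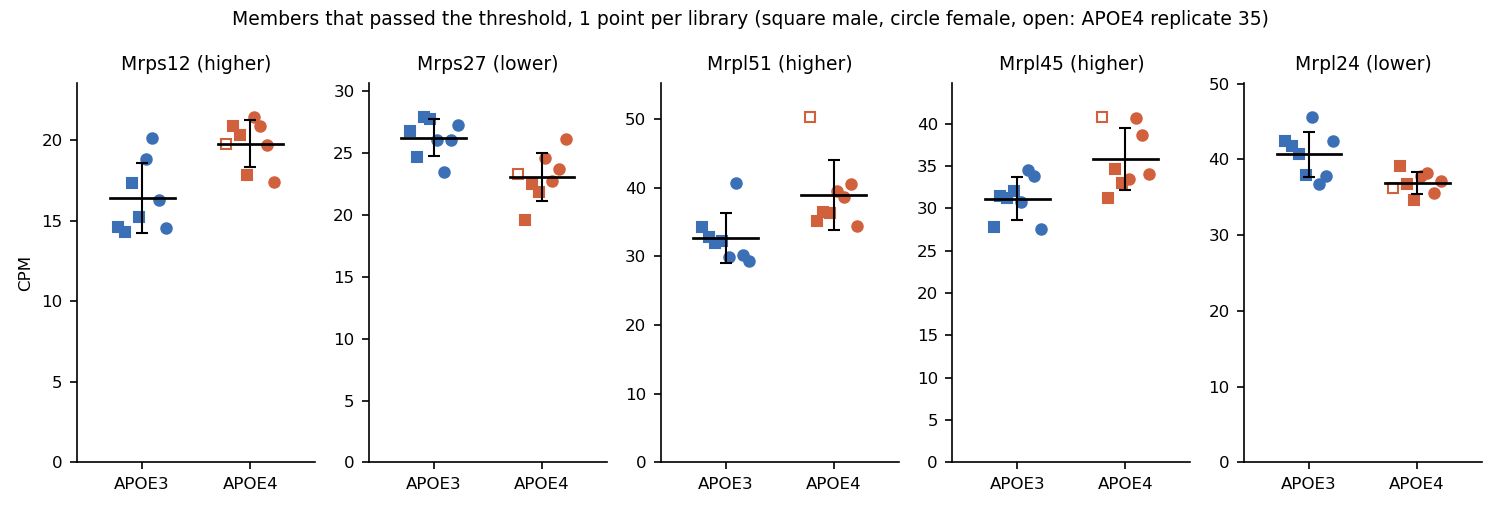
CPM of the 5 transcripts that passed the threshold (y axis, from 0), 1 point per library, *APOE3* left and *APOE4* right in each panel. Squares are males, circles females, the open square is *APOE4* replicate 35, and lines with bars are mean ± SD of 8 libraries; the genotypes overlap in each panel, and replicate 35 reaches 50.2 CPM for Mrpl51.

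The genes next below the threshold were Mrps14, Mrpl35, Mrpl38, Mrps22, Mrpl40 and Mrpl20. Mrps14, a small subunit protein with a bacterial counterpart, had a lowest, median and highest level of 9.42, 11.4 and 12.6 CPM in *APOE3* and 11.4, 13.3 and 15.5 CPM in *APOE4* libraries. Its log2 fold change was 0.24 (adjusted p = 0.0509, SE 0.078), and it passed the threshold with DESeq2 (adjusted p = 0.0342), with sex as a covariate (0.0491) and with at least 10 counts in every library (0.0471), and also without *APOE3* replicate 27 or *APOE4* replicate 36, 37 or 38 (0.0366 to 0.0465). Mrpl35, with a bacterial counterpart, had 10.1 ± 0.608 and 11.5 ± 0.796 CPM (log2 fold change 0.18, adjusted p = 0.0651). Mrpl38, of the central protuberance of the large subunit, had 29.2 ± 2.04 and 26.5 ± 1.73 CPM (-0.14, adjusted p = 0.0690). Mrps22, a mitochondria-specific small subunit protein, had 5.32 ± 0.560 and 6.18 ± 0.450 CPM (0.22, adjusted p = 0.0816), from 68 to 121 counts per library. Mrpl40 and Mrpl20 had log2 fold changes of 0.14 and 0.16 (adjusted p = 0.116 for each), and Mrpl20 reached its highest level, 28.1 CPM, in replicate 35. Mrpl35 passed without *APOE4* replicate 43 (0.21), and Mrpl38 without *APOE3* replicate 27 or 32 or *APOE4* replicate 37 (-0.16 to -0.17).

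By subunit, 3 of 48 large subunit genes (6.25%, 2 higher and 1 lower) passed the threshold, against 12.8% of all genes tested. Of 29 small subunit genes, 2 passed (6.9%, 1 higher and 1 lower). Median log2 fold changes were 0.01 for the large and 0.04 for the small subunit, against -0.0002 over all genes tested. With the cell cycle score in the model they were -0.04 and -0.002, so their sign depends on that choice. The large subunit median was also below 0 with GC content and gene length corrected (-0.0095) and in 1 of the 16 fits that left out 1 library, that without *APOE4* replicate 35 (-0.0036, with 22 of 48 genes above 0). The other 15 of these fits reached up to 0.0245. The summed level of the Mrpl genes was 1048 ± 25.5 CPM in *APOE3* and 1059 ± 37.0 CPM in *APOE4* libraries, and 1047 ± 15.5 CPM (n = 7) without *APOE4* replicate 35. The summed level of the Mrps genes was 501.6 ± 7.37 and 515.7 ± 18.2 CPM, and 509.9 ± 8.16 CPM (n = 7) without that library. The ratio of large to small subunit transcripts was 2.09 ± 0.0393 (2.05 to 2.16) in *APOE3* and 2.05 ± 0.0455 (1.97 to 2.11) in *APOE4* libraries, and these ranges overlapped.

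Symbols do not always name the subunit. Mrps18a and Mrps30 encode proteins of the large subunit, and Mrps36 is now counted with the oxoglutarate dehydrogenase complex. Grouped instead by place, which was also assigned by hand, 50 large and 26 small subunit genes were tested. Their median log2 fold changes were 0.01 and 0.04. The Mrps18 paralogues had 24.7 ± 1.67 and 26.3 ± 1.99 CPM (Mrps18a, log2 fold change 0.09, adjusted p = 0.298), 10.2 ± 1.09 and 10.2 ± 0.784 CPM (Mrps18b, -0.002, 0.991) and 7.89 ± 1.21 and 8.11 ± 0.609 CPM (Mrps18c, 0.04, 0.807). Mrps30 (-0.01, adjusted p = 0.968) and Mrps36 (0.002, adjusted p = 0.995) were near 0. Mrps36 has pseudogenes that share 17.3% of its 50-base stretches.

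The split by origin gave different signs. Of the 45 genes with a bacterial counterpart, 34 had a log2 fold change above 0 and the median was 0.04. Of the 28 mitochondria-specific genes tested, 11 were above 0 and the median was -0.03. Over all genes tested, 6232 of 12481 were above 0. Called were 2 (4.44%, 1 higher and 1 lower) and 3 (10.7%, 2 higher and 1 lower) genes, against 12.8% of all genes. These calls are too few to show whether called genes follow this split. With the cell cycle score in the model, 20 of 45 and 8 of 28 were above 0, with medians of -0.015 and -0.0452. Without *APOE4* replicate 35 the counts above 0 were 27 of 45 and 11 of 28, and the same with GC content and gene length corrected. In the other alternatives than the cell cycle score the medians ran from 0.0222 to 0.0622 and from -0.0438 to -0.0150. This difference between the classes was not tested.

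Overlapping or shared sequence bears on 12 of the 78 genes, those with over 20% of their exon bases in another gene or of their 50-base stretches in other transcripts. Both lower genes, Mrps27 and Mrpl24, are among them. Of the 66 others, 3 passed the threshold (4.55%, against 12.8% of all genes), all higher. The remaining ones were Mrpl53, Mrpl47, Mrps18b, Mrps18c, Mrpl19, Mrpl22, Mrpl27, Mrpl43, Mrps25 and Mrps34. Of these, Mrpl53 was not tested and the other 9 had log2 fold changes from -0.08 (Mrpl43) to 0.15 (Mrpl19), and a lowest adjusted p of 0.225. After Mrpl53, the overlap was largest for Mrps34 (77.8% of exon bases, Nme3 and Mapk8ip3) and Mrps25 (69.8%, Nr2c2).

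**Figure D4:**
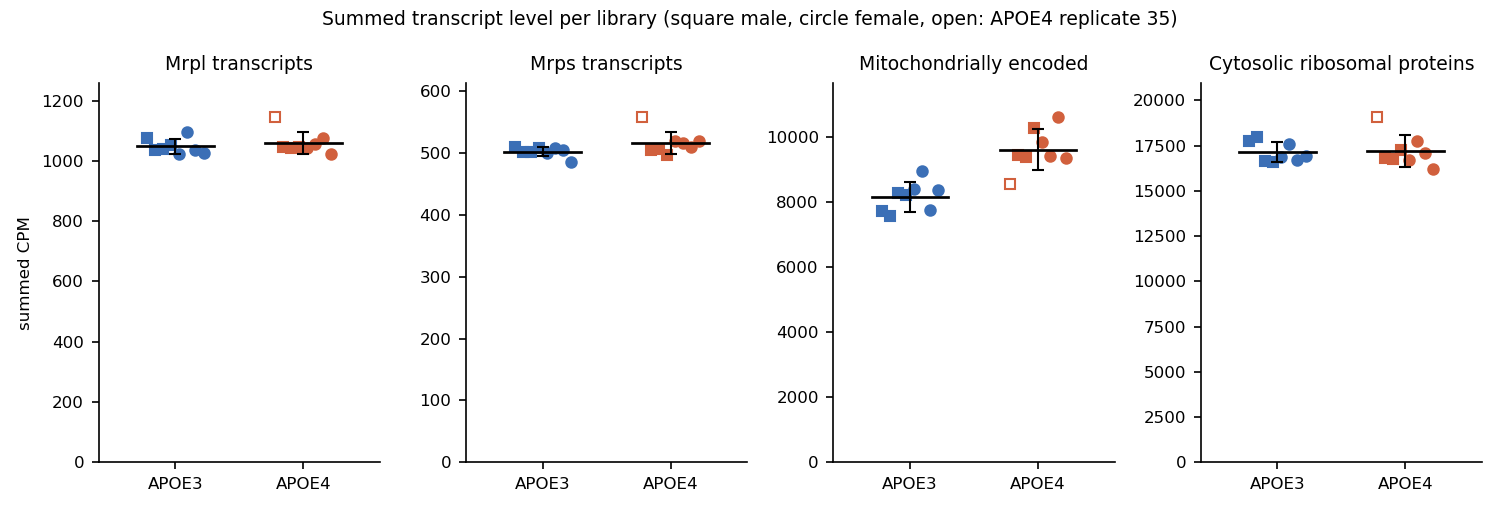
Summed CPM per library (y axes from 0, on different scales) of Mrpl, Mrps, mitochondrially encoded and cytosolic ribosomal protein transcripts, 1 point per library. Squares are males, circles females, the open square is *APOE4* replicate 35, and lines with bars are mean ± SD of 8 libraries; the genotypes overlap for Mrpl and Mrps, and the *APOE4* mean is higher for the mitochondrially encoded transcripts.

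The templates of this ribosome gave another picture. Of the 13 mitochondrially encoded proteins, transcripts of 7 were tested, and 6 of them were higher in *APOE4* cells (85.7%, against 6.71% of all genes). With the cell cycle score in the model none of them was called, as for all genes tested. Examples are mt-Nd5 of complex I, with 1520 ± 110.1 and 1872 ± 157.7 CPM (log2 fold change 0.30 with SE 0.052, adjusted p = 0.00542), and mt-Co1 of complex IV, with 3738 ± 207.5 and 4333 ± 240.0 CPM (0.21 with SE 0.039, adjusted p = 0.00574). mt-Nd6 was tested and did not pass (0.10 with SE 0.161, adjusted p = 0.737). The rest of the 13 were left out by the filter on low counts, and why their counts were so low was not tested. Summed over all 13, the level was 8163 ± 450.5 CPM in *APOE3* and 9609 ± 633.3 CPM in *APOE4* libraries. Nearly all of this sum came from the 7 tested, so it does not cover all templates of this ribosome. All mitoribosomal genes summed to 1549 ± 30.7 and 1575 ± 52.8 CPM. Without replicate 35 the *APOE4* values were 9760 ± 504.6 and 1557 ± 15.9 CPM (n = 7).

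Other proteins of mitochondrial translation were mostly not called, and of all genes tested 12.8% were called. Of 5 mitoribosomal proteins with another symbol, Ptcd3, a pentatricopeptide repeat protein of the small subunit, was higher (19.1 ± 1.31 to 21.3 ± 0.805 CPM, log2 fold change 0.15 with SE 0.0496, adjusted p = 0.0451). Dap3, Chchd1, Aurkaip1 and Gadd45gip1 did not pass, with log2 fold changes from -0.07 to 0.07. Of 29 assembly factors, 2 were lower and none higher, namely Mettl17 of small subunit assembly (13.1 ± 1.37 to 10.2 ± 2.03 CPM, log2 fold change -0.35 with SE 0.108, adjusted p = 0.0359) and Ngrn, which acts on the large subunit RNA (12.2 ± 1.11 to 10.0 ± 0.824 CPM, -0.28 with SE 0.0700, adjusted p = 0.0143). The median of the assembly factors was -0.06. None of 18 translation factors passed in edgeR, with 1 at an unadjusted p under 0.05. Of 21 genes of mitochondrial transcription and RNA processing, Polrmt, the mitochondrial RNA polymerase, was lower (31.2 ± 2.04 to 27.5 ± 2.03 CPM, -0.18 with SE 0.0525, adjusted p = 0.0281). None of 12 regulators of nuclear genes for mitochondrial proteins passed, with 2 at an unadjusted p under 0.05.

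The cytosolic ribosome and the nuclear-encoded respiratory chain were set beside the mitoribosome. Of 80 cytosolic ribosomal protein genes tested, 2 were lower (2.50%), Rps27 and Rps14, and the median was -0.0002. Of 78 nuclear-encoded respiratory chain genes tested, 1 was lower (1.28%), Ndufa6, and the median was 0.02. The mitoribosomal share of 6.49% lies between these and the 12.8% of all genes.

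Neighbours on the opposite strand were tested for 30 of the 33 genes that have one. Of these neighbours, 4 were higher, against 6.71% of all genes, namely Ncapd2 beside Mrpl51, Ska3 beside Mrpl57, Eme1 beside Mrpl27 and Tcp1 beside Mrpl18. Another 2 were lower, against 6.09% of all genes, Klc4 beside Mrpl2 and Pnpla7 beside Mrpl41. Of the mitoribosomal genes beside the called neighbours, only Mrpl51 was called. Ska3, of the kinetochore, had a log2 fold change of 0.59 (adjusted p = 0.0265, SE 0.167), whereas Mrpl57, which starts 49 bp away, had -0.04 (SE 0.071). Eme1, a subunit of a DNA repair nuclease, had 0.50 (adjusted p = 0.0429, SE 0.160) and Mrpl27 had -0.02 (SE 0.077). Tcp1, a cytosolic chaperonin subunit, had 0.15 (adjusted p = 0.0463, SE 0.0473) and Mrpl18 had 0.16 (adjusted p = 0.136, SE 0.0726). Mrps27 and its neighbour Ptcd2, which acts on mitochondrial RNA, had -0.19 and -0.17 (adjusted p = 0.166 for Ptcd2). Mrpl46 and Mrps11, of different subunits, are each other's neighbour and had 0.11 and 0.09, neither called.

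**Figure D5:**
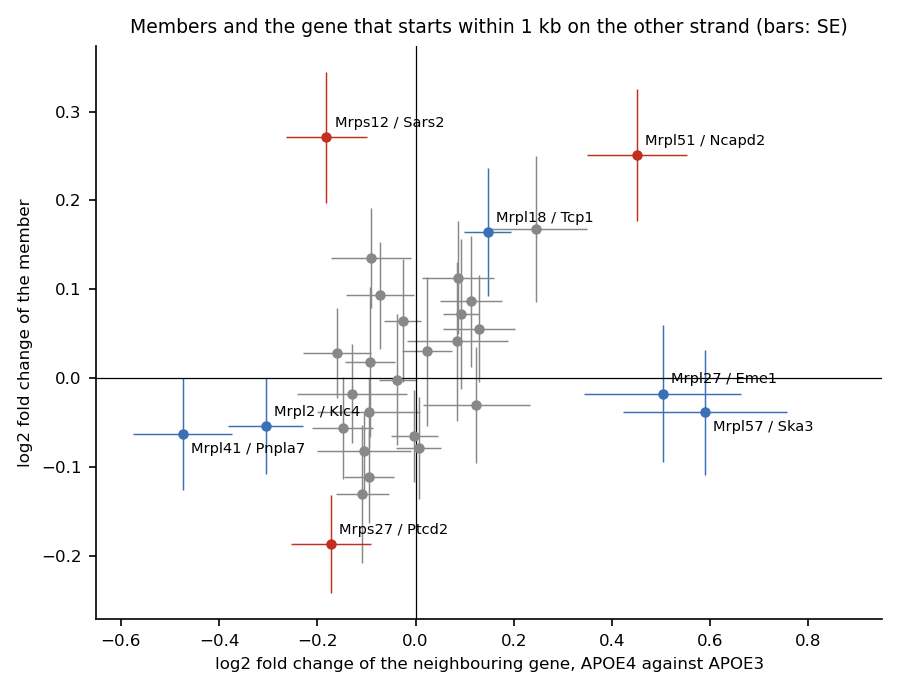
Log2 fold change of mitoribosomal transcripts (y axis) against that of the gene starting within 1000 bp on the other strand (x axis), *APOE4* against *APOE3*, for the 30 genes with a tested neighbour; Mrpl46 and Mrps11 appear once on each axis, so these are 29 distinct pairs, and bars are SE. Red marks pairs whose mitoribosomal gene was called and blue pairs whose neighbour alone was called; the pairs of Mrpl27 and Mrpl57 lie far right of 0 and near 0 on the y axis.

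Male and female libraries were compared in 1 fit of 4 groups with 4 libraries each. No mitoribosomal gene and no other gene passed the threshold for genotype within males or within females in edgeR's test. At an unadjusted p under 0.05 there were 5 mitoribosomal genes in males and 8 in females, against 14.2% and 19.5% of all genes. Without *APOE3* replicate 31, 2 of the 77 mitoribosomal genes were called within females, Mrpl20 and Mrpl51, both higher. Of all genes, 6.99% were called in that fit. The median log2 fold change of the 77 genes was 0.02 in each sex, and 53 genes had the same sign in both. The difference between the sexes reached an adjusted p of 1.00 at its lowest, with 1 gene at an unadjusted p under 0.05, against 2.76% of all genes. That gene was Mrps22, with log2 fold changes of 0.05 in males and 0.39 in females (unadjusted p = 0.0475 for the difference). Mrps27 had -0.30 in males and -0.08 in females (unadjusted p = 0.0504). Females against males, none of the 77 was called and 9 genes in all were (0.0721%), with 3 mitoribosomal genes at an unadjusted p under 0.05, against 4.41% of all genes.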

How the data were processed

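RNA was sequenced from 16 primary brain endothelial cell cultures, 8 per *APOE* genotype. Polyadenylated RNA was selected from 100 ng per sample, amplified over 17 PCR cycles and read in pairs of 50 nt. For each gene, raw counts without normalization were deposited by the authors. The submitters' processing notes name STAR, featureCounts, mm10 and hg38, and the strand setting is not given in the sources used here. A total of 0 columns were left unmapped. Reads carry no molecular identifiers and are not independent molecules, and the SE and p-values measure the spread between cultures. Members and lists were chosen with earlier results of these data known.

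The fits were made with edgeR 4.0.16 in R 4.3.3 (filterByExpr, TMM, quasi-likelihood F test over 12481 genes, threshold 0.05), and with DESeq2 1.42.0 and limma 3.58.1 as alternatives. Python 3.11.15 and matplotlib 3.10.9 made the tables and figures. The SE was derived from the fold change and F, and the prior count of log2 CPM was 2. Positions, exon lengths and overlaps are from GENCODE vM21 (GRCm38), which holds 38872 of the 39056 mouse identifiers. Alternatives were DESeq2's size factors and Wald test, limma's voom, no filter, a minimum of 10 counts in all libraries, sex or the cell cycle score in the model, GC content and length corrected by splines with 5 degrees of freedom, and each library left out. Level by principal transcript and the fits within sex without single libraries were added after seeing the data. The fits were tested on simulated data.

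Genes were named by a rule. It took members past the threshold, the next 6 by p, the 3 highest and 3 lowest levels per length in each subunit, the Mrps18 paralogues with Mrps30 and Mrps36, members left out by the filter or called by sex, members with over 20% shared or overlapping sequence, the other mitoribosomal proteins, and list genes past the threshold, of which the text gives examples. The head-to-head neighbours, Mrpl33, Mrpl42, Mrpl46, Mrpl52, Mrps11 and mt-Nd6 were named after their values were seen.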

Additional observations from a re-analysis of the deposited data

Results flagged for a closer look

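In 72 groups of 8 libraries (each named gene, each summed level and the subunit ratio in each genotype), 10 values lay apart from the nearest of the other 7 by a share of the group's range above Dixon's 95% critical value. Chance flags about 1 in 20 independent groups. These groups are not independent, because the summed levels include the named genes, so the count of 10 cannot be set against that share.

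*APOE4* replicate 35 was the highest library in 5 of them. It had 50.2 CPM of Mrpl51 (the next had 40.6), 28.1 CPM of Mrpl20 (next 25.7), 1700 CPM over all mitoribosomal genes (next 1585), 1144 CPM over the Mrpl genes (next 1075) and 556.8 CPM over the Mrps genes (next 518.7). This library had the lowest total count and the highest cell cycle score, and their part in these levels was not tested. *APOE3* replicate 31 was highest for Mrpl51 with 40.7 CPM (next 34.2) and lowest for Mrps36 with 4.22 CPM (next 6.18). Mrps25 reached 20.0 CPM in *APOE3* replicate 32 (next 16.2), and Mrpl23 reached 4.78 CPM in *APOE4* replicate 39 (next 4.32). The Mrps genes summed to 485.3 CPM in *APOE3* replicate 33, the lowest library (next 499.5).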

How the results depend on the processing

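The 5 mitoribosomal genes called became 3 without a filter on low counts (2 higher, 1 lower), 3 with GC content and gene length corrected (1 higher, 2 lower) and 0 with the cell cycle score in the model, where 4 had an unadjusted p under 0.05 and none of all genes was called. DESeq2's size factors gave 5, its Wald test 6, limma's voom 5, sex as a covariate 5 and at least 10 counts in every library 6. The fits that each left out 1 library gave 0 to 6. Except for the cell cycle fit, shares of all genes called in these alternatives are not given here. The counts therefore do not show whether mitoribosomal genes changed more than other genes. Within females the count of 0 became 2 without *APOE3* replicate 31 (Mrpl20 and Mrpl51), so it ran from 0 to 2, and the counts within males, for the difference between the sexes and for sex were 0 in each fit. With the cell cycle score the median log2 fold change of the large subunit was -0.0433 and that of the small subunit -0.0019, and no other alternative moved either by more than the spread between libraries. Mrpl51 lost its call and turned its sign with that score (-0.006, adjusted p = 0.993), and none of the named genes was called in the opposite direction. Calls of Mrps12, Mrps27, Mrpl51, Mrpl45 and Mrpl24 held in 15, 8, 7, 6 and 4 of the 16 fits without 1 library, and in 7, 7, 6, 5 and 5 of the 8 other alternatives. Over the 744 alternative values of single named genes, 640 kept direction and side of the threshold, 49 lost a call, 11 gained one and 44 changed sign. Of these 44, 43 belonged to 10 genes that were not called. The values with a changed sign ran from -0.1036 to 0.0338. With the cell cycle score these were Mrpl34 (-0.1036), Mrps18c (-0.0533), Mrps21 (-0.0402), Mrps25 (-0.0144) and Mrpl27 (0.0127), with GC content and length corrected Mrps36 (-0.0518), Mrps18c (-0.0194) and Mrpl47 (-0.0101), without a filter Mrpl34 (-0.0024) and Mrps36 (-0.0018), and with voom Mrps18b (0.0031). Without 1 library, Mrpl34 ran from -0.0259 to 0.0343, Mrpl47 from -0.0029 to 0.0721, Mrps35 from -0.0554 to 0.0170, Mrps18b from -0.0281 to 0.0338, Mrps30 from -0.0492 to 0.0195, Mrps36 from -0.0706 to 0.0365 and Mrpl27 from -0.0599 to 0.0099. Mrps12 had adjusted p-values from 0.00482 to 0.736 over all of them. No paired analysis was possible because the label numbers, 25 to 43, are not shared between the genotypes. Depth limits genes of low counts most, and Mrpl53 could not be tested.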
